A study of Callithrix jacchus with 6 samples.

Results

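Brain endothelial cells line the vessels of the brain and form the blood-brain barrier, and they were examined here in the hippocampi of aged common marmosets (Callithrix jacchus), a small monkey. The libraries were prepared with droplet-based 3' chemistry from enzymatically dissociated tissue that had been frozen as a cell suspension. There were 3 libraries from animals given sevoflurane, an inhaled general anaesthetic, and 3 control libraries from animals given oxygen, all with a labelled time of 6 h. No genotype or transgene was given for either group, and the labels do not say whether each library came from 1 animal or from several, so p-values measure only the spread between these libraries. A barcode counted as endothelial when at least 3 of the genes ERG, MECOM, LEF1, ADGRF5, CYYR1, ABCB1 and ABCG2 were detected, when these genes made up at least 20 of every 10000 unique molecular identifiers (UMIs, each marking 1 captured transcript) and when MOG, ALDH1L1, PDGFRA and SLC17A7 together had at most 1 UMI. This left 582 endothelial barcodes of 46582 in all. ABCG2 carries no symbol in the deposited feature list, so 6 of the 7 genes took part in the selection, and ABCG2 was read afterwards through a table of gene names.

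Brain endothelial cells are joined by tight junctions, carry out little vesicle transport and express efflux pumps that return many drugs to the blood and solute carriers that bring in glucose, amino acids and other nutrients. This specialised state is maintained by Wnt ligands acting through beta-catenin and LEF1-type transcription factors. The same cells can respond to inflammatory signals through NF-kB, which induces the adhesion molecules that capture leukocytes, and to glucocorticoids through the glucocorticoid receptor, which induces FKBP5, a co-chaperone that in turn lowers the receptor's affinity for hormone.

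The libraries held 7103 to 8577 barcodes after sevoflurane and 7170 to 8236 in controls, with 41164947 to 47886816 UMIs after sevoflurane and 41664423 to 45776166 UMIs in controls. Endothelial barcodes numbered 81, 24 and 123 in sevoflurane replicates 1, 2 and 3, against 99, 95 and 160 in control replicates 1, 2 and 3, the order in which values of single libraries are given throughout. Their median depth was 2148, 3067 and 2585 UMIs after sevoflurane and 2519, 2324 and 2357.5 UMIs in controls. The summed endothelial UMIs came to 205296, 84440 and 400527 after sevoflurane, against 294693, 279179 and 478943 in controls, so that a count of 0 allows up to 35.5 counts per 1000000 UMIs (CPM) in sevoflurane replicate 2 and 6.26 to 14.6 CPM in the others (3 counts, covering counting error only). Sevoflurane replicate 2 had the fewest endothelial barcodes and stood apart in their expression. Its log2 CPM profile over the genes tested correlated with that of its most similar library at 0.70, whereas each of the other 5 libraries reached at least 0.898 with another. The 6 libraries shared 261 barcode sequences among all barcodes, and no sequence was endothelial in more than 1 library. Results that rest on sevoflurane replicate 2 are given with and without it.

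Endothelial genes outside the selection rule had far higher levels in the selected barcodes than elsewhere, as the cell type label requires. Of 28 listed endothelial identity genes in the files, 24 had a higher CPM in endothelial barcodes than in all other barcodes of the same library in 6 of 6 libraries. FLT1, a VEGF receptor that binds its ligand as a decoy, stood at 1861, 3659 and 1675 CPM in endothelial barcodes after sevoflurane and at 1666, 3149 and 3153 CPM in controls, against 16.5 to 36.5 CPM in all other barcodes of the libraries. FLI1 and ETS1, transcription factors of the ETS family that direct endothelial fate, averaged 956 ± 206 and 369 ± 146 CPM over the 6 libraries (SD, n = 6 libraries). EPAS1, an oxygen-regulated transcription factor, averaged 785 ± 112 CPM in endothelial barcodes, where all other barcodes had 7.42 to 20.4 CPM.
The surface proteins of the endothelium gave the same separation. ENG, a co-receptor for BMP ligands that is mutated in hereditary haemorrhagic telangiectasia, averaged 474 ± 183 CPM, against 1.97 to 6.94 CPM elsewhere. ROBO4, a guidance receptor that stabilises vessels, averaged 159 ± 30.1 CPM, and TEK, the receptor for angiopoietins, 179.6 ± 39.7 CPM. VWF, the clotting factor carrier stored by endothelial cells, was 144 times as high as in all other barcodes. These ratios describe barcodes selected on their expression and genes taken for their high ratios, and they carry no test. Not every textbook marker was well captured: CLDN5, the main claudin of brain endothelial tight junctions, had 51 UMIs in 40 of the 582 barcodes, and GJA4, a gap junction protein of arteries, had none.

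**Figure D1:**
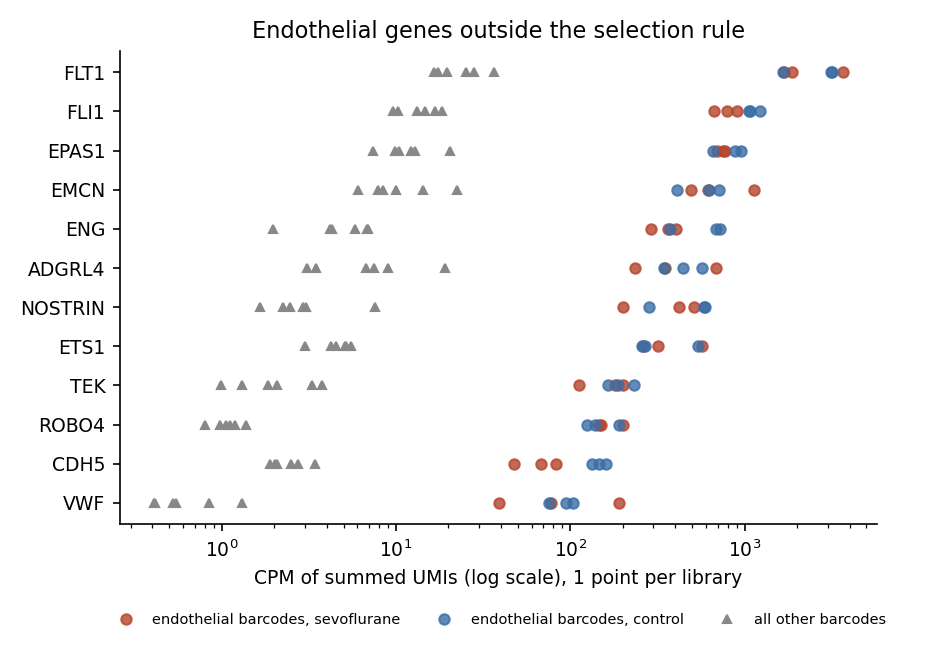
Levels of 12 endothelial genes outside the selection rule in summed endothelial barcodes of the 3 sevoflurane and 3 control libraries (circles) and in all other barcodes of the same libraries (triangles), in CPM on a logarithmic axis, 1 point per library. The genes were taken from the identity list for their high ratios over all other barcodes, so their separation follows that choice. In each of the 12 genes every circle lies to the right of every triangle; for FLT1 the circles run from 1666 to 3659 CPM and the triangles from 16.5 to 36.5 CPM.

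The genes that chose the barcodes describe how far the members resemble one another. MECOM, a zinc-finger transcription factor, was detected in 539 of the 582 barcodes, ERG, an ETS factor that maintains endothelial identity, in 461 and CYYR1 in 437. LEF1, the transcription factor through which beta-catenin acts, stood at 1072, 319.8 and 1114 CPM after sevoflurane and 1340.4, 1941 and 1564 CPM in controls. The efflux pump ABCB1 (P-glycoprotein), which expels many drugs from the endothelium, stood at 643, 403 and 814 CPM after sevoflurane and 533, 663 and 869 CPM in controls. ABCG2, the breast cancer resistance protein and another such pump, was near the level of the other libraries in sevoflurane replicates 1 and 3 and far lower in replicate 2, with 536, 59.2 and 657 CPM after sevoflurane and 438, 544 and 654 CPM in controls. Close to the limits of the rule, 13 members had 20 to under 25 UMIs of the rule genes per 10000, while 20 barcodes with 15 to under 20 stayed outside. A further 94 members had exactly 3 of the genes, and 55 barcodes missed selection with 2. Another 95 barcodes were left out for having more than 1 UMI of the excluding genes, and 162 members had exactly 1.

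The endothelial share of a library varied as much within groups as between them. It was 0.944% after sevoflurane in replicate 1 (exact 95% binomial interval 0.751 to 1.17), 0.327% in replicate 2 (0.210 to 0.487) and 1.73% in replicate 3 (1.44 to 2.06), against 1.20% (0.978 to 1.46), 1.32% (1.07 to 1.62) and 1.96% (1.67 to 2.28) in the controls. The share averaged 1.00% ± 0.704 after sevoflurane and 1.5% ± 0.406 in controls (SD, n = 3 each), a difference of -0.49 percentage points with a two-sided exact permutation p = 0.4, where the smallest p that 3 against 3 libraries allow is 0.1. The ranges overlapped, and without sevoflurane replicate 2 the difference was -0.16 percentage points. Fewer endothelial cells in the tissue and fewer recovered from the dissociation cannot be told apart.

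**Figure D2:**
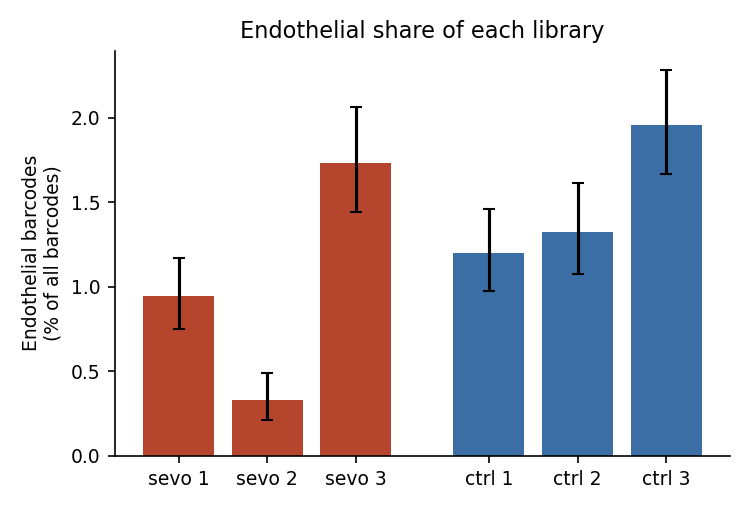
Endothelial barcodes as a percentage of all barcodes in each library, with exact 95% binomial intervals that cover counting error only. Sevoflurane replicate 2 is lowest at 0.327% and control replicate 3 highest at 1.96%, and the 2 groups overlap.

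FKBP5 stood higher in endothelial barcodes of every sevoflurane library than in those of any control. It had 278, 734 and 572 CPM in the sevoflurane libraries, against 149, 147 and 100.2 CPM in the controls, resting on 57, 62 and 229 UMIs after sevoflurane and 44, 41 and 48 UMIs in controls. The groups did not overlap, and sevoflurane replicate 1 lay closest to the controls. The mean was 528 ± 231 CPM after sevoflurane and 132 ± 27.7 CPM in controls (SD, n = 3 each). In edgeR's quasi-likelihood test the log2 fold change was 2.06 ± 0.41 (SE), which did not pass after Benjamini-Hochberg adjustment over all 5755 genes tested (adjusted p = 1.00, unadjusted p = 0.000503). DESeq2, run as an alternative, called it at an adjusted p of 0.0499, and it was the only gene DESeq2 called among the 5750 genes it adjusted (0.0174%). Over all alternatives the log2 fold change lay between 1.75, without sevoflurane replicate 2, and 2.40, without sevoflurane replicate 1, with adjusted p from 4.0e-05 without a filter on low counts to 1.00.
The same pattern appeared as a share of cells. With each barcode thinned to 1000 UMIs, an FKBP5 UMI was present in 19 of 77, 12 of 24 and 56 of 123 endothelial barcodes after sevoflurane (24.7%, 50.0% and 45.5%), against 11 of 98, 10 of 95 and 12 of 158 in controls (11.2%, 10.5% and 7.59%). The means were 40.1% ± 13.5 after sevoflurane and 9.78% ± 1.93 in controls (SD, n = 3 each), and the two-sided exact permutation p of 0.1 is the lowest that 3 against 3 libraries can give. Thinning removed 4 barcodes after sevoflurane and 3 in controls. Without thinning the means were 65.6% after sevoflurane and 25.1% in controls, and with 500 UMIs 22.4% after sevoflurane and 6.01% in controls. Barcodes with at least 3 UMIs of GAD1 and GAD2, the genes of inhibitory neurons, held an FKBP5 UMI in 2.76% ± 0.347 after sevoflurane and 2.07% ± 0.569 in controls at the same thinned depth (SD, n = 3 each). Their median depth was 6522.5 to 8924 UMIs before thinning. Without thinning their shares were 19.9% ± 1.73 after sevoflurane and 11.9% ± 1.63 in controls. Thinning removes more RNA from these deeper barcodes, so neither share measures free RNA in endothelial barcodes, and its part was not tested.

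**Figure D3:**
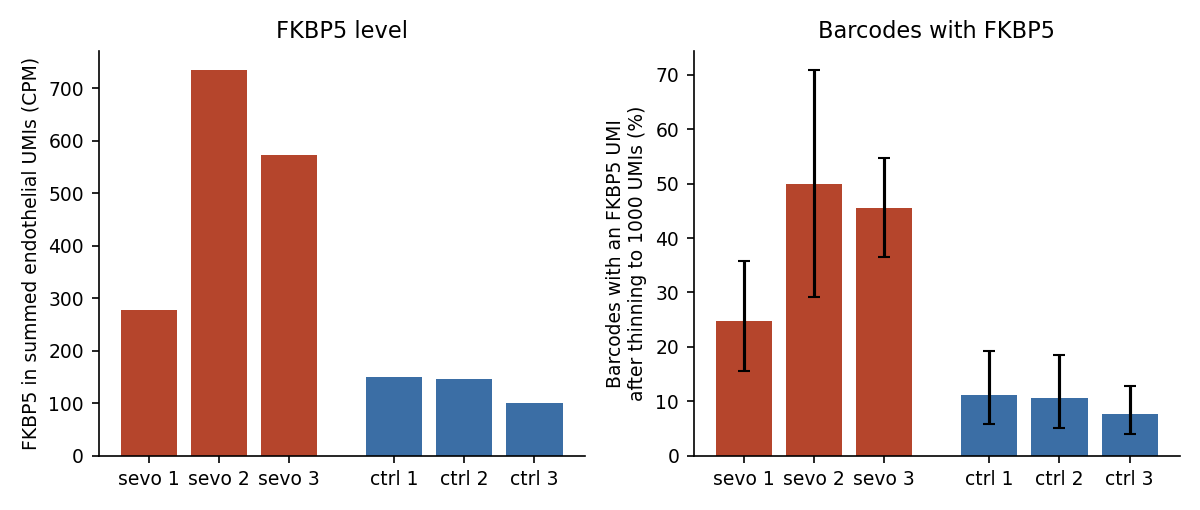
FKBP5 in endothelial barcodes by library: CPM of the summed UMIs (left) and the percentage of barcodes with an FKBP5 UMI after thinning to 1000 UMIs, with exact 95% binomial intervals for counting error (right). The sevoflurane libraries span 278 to 734 CPM and 24.7% to 50.0%, all above the controls at 100.2 to 149 CPM and 7.59% to 11.2%.

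FKBP5 belonged to a list of 27 glucocorticoid-responsive genes, of which 15 were abundant enough to be tested. None passed edgeR's adjusted test, as was the case for 0 (0.0%) of all 5755 genes; 218 genes (3.79%) had an unadjusted p under 0.05, 5 of them on this list. The log2 fold change was above 0 in 13 of the 15, against 52.0% of all genes tested, and the median was 0.54, against 0.019 over all genes; without sevoflurane replicate 2 the median was 0.29. In 4 of the 15 the sevoflurane libraries all lay above the controls, against 3.37% of all genes; these were FKBP5, FOXO3, GLUL and DDIT4. FOXO3, a forkhead transcription factor of starvation and stress, had 443, 1978 and 579 CPM after sevoflurane and 346, 333 and 313 CPM in controls, a log2 fold change of 1.67 ± 0.54 that was 0.66 ± 0.22 without sevoflurane replicate 2. DDIT4, an inhibitor of mTORC1 that glucocorticoids and hypoxia both induce, had 43.8, 47.4 and 49.9 CPM after sevoflurane and 33.9, 21.5 and 20.9 CPM in controls. ZBTB16, a zinc-finger repressor strongly induced by glucocorticoids in many tissues, behaved differently among the libraries. It had 1008, 261 and 1476 CPM after sevoflurane and 400.4, 419 and 530.3 CPM in controls, so that replicates 1 and 3 lay above every control and replicate 2 below all of them. The log2 fold change of ZBTB16 was 1.09 ± 0.47 with all libraries and 1.48 ± 0.24 without that replicate (edgeR adjusted p = 0.16). NR3C1, the glucocorticoid receptor itself, overlapped between the groups at 687, 995 and 669 CPM after sevoflurane and 618, 1347 and 1027 CPM in controls. Without sevoflurane replicate 2 the log2 fold change was above 0 in 11 of the 15, against 49.4% of all genes then tested, and their median was 0.29. That replicate was the highest library in 9 of the 15 (60%), against 24.7% of all genes tested. With all libraries the lowest log2 fold change of the list was -0.29. For TSC22D3, also on the list, the log2 fold change in endothelial barcodes minus that in all other barcodes was -0.55 ± 0.38 (SE, limma adjusted p = 0.98).

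Among all genes, those with the smallest unadjusted p in each direction lay outside the lists apart from FKBP5 and SLC6A6, and none passed the adjusted test (adjusted p = 1.00 for each). PLA2G4A, the cytosolic phospholipase A2 that releases arachidonic acid for prostaglandin synthesis, had 346, 474 and 239.7 CPM after sevoflurane and 126, 111 and 127 CPM in controls, with no overlap and a log2 fold change of 1.56 ± 0.32, which was 2.35 in barcodes with no UMI of the excluding genes. GHR, the growth hormone receptor, had 434, 450.0 and 217 CPM after sevoflurane and 139, 86.0 and 146 CPM in controls, a log2 fold change of 1.58 ± 0.36. LRRC1 and KIAA1549L gave log2 fold changes of 1.58 ± 0.36 and 1.25 ± 0.27, and that of KIAA1549L was 0.62 under a stricter barcode rule; the level of KIAA1549L was lower in endothelial barcodes than in all other barcodes, which held 425 to 695 CPM.
On the lower side, VCL, the vinculin that ties adhesion sites to actin, had 175, 94.7 and 92.4 CPM after sevoflurane and 407, 555 and 240.1 CPM in controls, a log2 fold change of -1.67 ± 0.39. DNM3, a dynamin of membrane scission, had 945, 876 and 834 CPM after sevoflurane and 1581, 1780.2 and 1601 CPM in controls, and its log2 fold change of -0.84 ± 0.21 was the smallest of the 10 in size. SLC6A6, the taurine transporter of the barrier, had 63.3, 71.1 and 39.9 CPM after sevoflurane and 302, 129 and 132 CPM in controls. For these 3 genes every sevoflurane library lay below every control, as it did for 6.19% of all genes tested. DNAH7, an axonemal dynein of motile cilia, had 19.5, 11.8 and 25 CPM after sevoflurane and 98.4, 78.8 and 81.4 CPM in controls, levels below those of all other barcodes, which had 102, 59.7 and 78.9 CPM after sevoflurane and 103, 138 and 160.4 CPM in controls; whether free RNA took part in this difference was not tested. C1orf54, the last of the 10, had a log2 fold change of -1.61 ± 0.37.

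**Figure D4:**
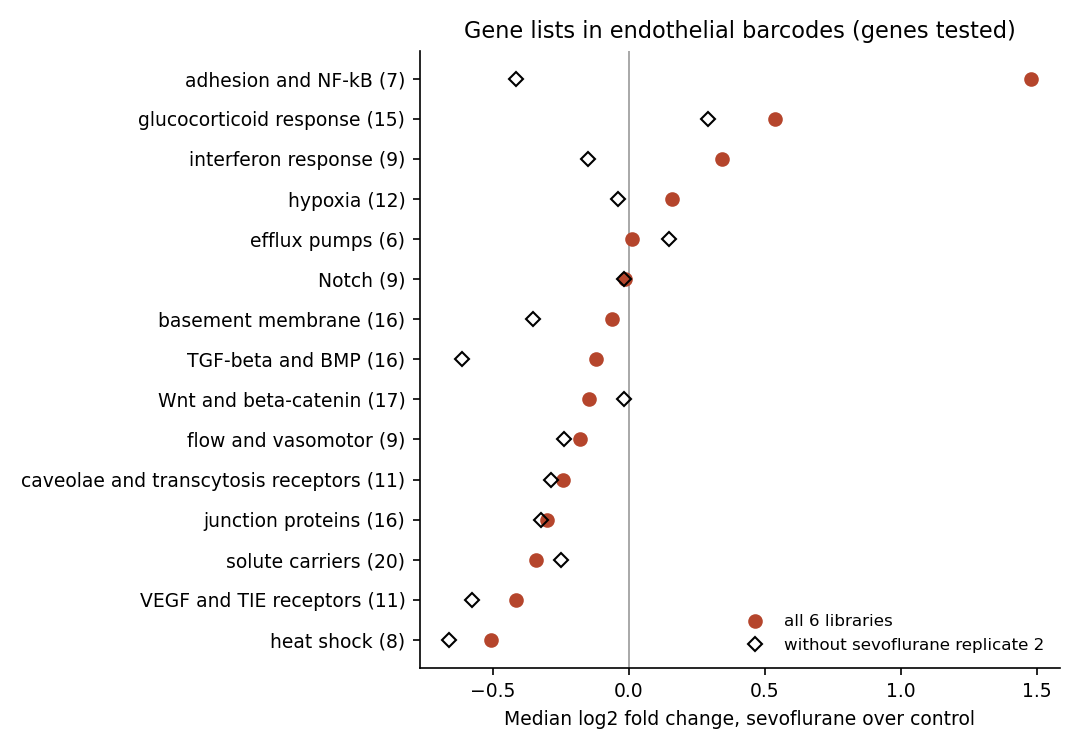
Median log2 fold change, sevoflurane over control, of the tested members of 15 gene lists in endothelial barcodes, with all 6 libraries (filled circles) and without sevoflurane replicate 2 (open diamonds); the number of genes tested follows each name, and genes of the selection rule are left out of the efflux and Wnt lists. The adhesion and NF-kB list is at 1.48 with all libraries and at -0.41 without that replicate, and the glucocorticoid list is at 0.54 and 0.29; over all genes the median is 0.019.

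The barrier lists held no gene that passed the adjusted test. All 6 efflux pumps outside the selection rule were tested, 3 with a log2 fold change above 0 and 3 below; their median was 0.012, and 0.15 without sevoflurane replicate 2, and none had an unadjusted p under 0.05. ABCC4, an exporter of organic anions and cyclic nucleotides, had 122, 308 and 137 CPM after sevoflurane and 187, 107 and 91.9 CPM in controls, while ABCA1, the cholesterol exporter, had 73.1, 107 and 87.4 CPM after sevoflurane and 47.5, 86.0 and 58.5 CPM in controls; both overlapped. Of 20 solute carriers tested, 15 had a log2 fold change below 0, against 48.0% of all genes, with a median of -0.34, and the groups did not overlap in 3, all lower after sevoflurane, beside 6.19% of all genes tested that were lower and 3.37% that were higher without overlap.
SLC2A1, the glucose transporter GLUT1 on which the brain's fuel supply depends, was one of these 3, with 375, 332 and 359.5 CPM after sevoflurane and 421, 487 and 693 CPM in controls, a log2 fold change of -0.53 ± 0.27. SLC39A10, a zinc importer, was another, with 370.2, 71.1 and 352 CPM after sevoflurane and 557, 838 and 716 CPM in controls, and a log2 fold change of -1.30 ± 0.44 that was -0.95 ± 0.24 without sevoflurane replicate 2. The third was SLC6A6, described above. SLCO2B1, an organic anion carrier, and SLC7A1, the carrier of cationic amino acids, overlapped, with log2 fold changes of -0.26 ± 0.24 and -0.37 ± 0.47.

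Junction genes were likewise mostly lower by sign, without a call. Of 16 tested, 13 had a log2 fold change below 0, against 48.0% of all genes, and the median was -0.30. The endothelial identity list, which shares some of these genes, leaned the same way, so lower signs were not particular to barrier genes. Of its 23 tested genes 17 were below 0, with a median of -0.26. Without sevoflurane replicate 2, 21 of the 23 were below 0 and the median was -0.44. CDH5, the VE-cadherin of endothelial adherens junctions, had 68.2, 82.9 and 47.4 CPM after sevoflurane and 146, 161 and 134 CPM in controls, with no overlap, a log2 fold change of -1.19 ± 0.33 and an unadjusted p of 0.00472 (edgeR adjusted p = 1.00). CTNND1, the p120-catenin that holds cadherins at the membrane, had 127, 82.9 and 97.4 CPM after sevoflurane and 136, 183 and 136 CPM in controls. CGNL1 and PARD3, which organise tight junctions and cell polarity, had log2 fold changes of -0.55 ± 0.36 and 0.08 ± 0.23. OCLN, the tight junction protein occludin, was named after its values were seen, because it stood at 156, 11.8 and 195 CPM after sevoflurane and 149, 247 and 194 CPM in controls, with sevoflurane replicate 2 alone far below the rest.
Among 11 tested genes of caveolae and transcytosis, 8 had a log2 fold change below 0, against 48.0% of all genes. CAV1, which shapes caveolae, had 53.6, 11.8 and 30 CPM after sevoflurane and 78.0, 125 and 56.4 CPM in controls, a log2 fold change of -1.24 ± 0.46. TFRC, the transferrin receptor through which iron enters the brain, had 531, 474 and 549 CPM after sevoflurane and 696, 731 and 585 CPM in controls. Neither CAV1 nor TFRC overlapped between the groups, beside 6.19% of all genes tested that were lower without overlap. The lipoprotein receptor LRP8, the growth factor receptor IGF1R and the leptin receptor LEPR overlapped, with log2 fold changes of -0.79 ± 0.43, 0.073 ± 0.30 and -0.26 ± 0.39.

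Signs in the lists of genes that build and keep vessels ranged from near even to mostly below 0. They are to be read beside the 48.0% of all genes tested with a log2 fold change below 0. In the Wnt list, leaving out LEF1, a gene of the selection rule, 11 of 17 tested genes had a log2 fold change below 0, with a median of -0.14 that was -0.019 without sevoflurane replicate 2. NKD1, a feedback inhibitor that Wnt signalling induces, had 102, 0 and 135 CPM after sevoflurane and 139, 215 and 159 CPM in controls, whereas TCF7L2 and TNFRSF19 overlapped. In the VEGF and TIE list 9 of 11 were below 0, with a median of -0.42 that was -0.58 without that replicate.
PLXND1, a semaphorin receptor, had 24.4, 23.7 and 39.9 CPM after sevoflurane and 156, 46.6 and 73.1 CPM in controls and did not overlap, and KDR, the main signalling VEGF receptor, had 117, 71.1 and 59.9 CPM after sevoflurane and 146, 165 and 89.8 CPM in controls. FLT1, PTPRB and PLXNA2, the genes of the list with the most UMIs, overlapped.
The Notch list, whose pathway sets arterial fate, had 4 tested genes above and 5 below 0. MAML3, a co-activator of Notch, did not overlap, at 297, 237 and 242 CPM after sevoflurane and 115, 189.8 and 161 CPM in controls, although other barcodes held 189.9 to 276 CPM. In the TGF-beta and BMP list 8 of 16 were above and 8 below 0, with a median of -0.12; without sevoflurane replicate 2, 12 of the 16 were below 0 and the median was -0.61. BMPR2, a BMP receptor mutated in pulmonary hypertension, was highest in replicate 2, with 1525, 3730.5 and 1024 CPM after sevoflurane and 2318, 1791 and 1328 CPM in controls. SMAD6, an inhibitor that BMP signalling induces, had 389.7, 118 and 182 CPM after sevoflurane and 1055, 301 and 324 CPM in controls, where control replicate 1 lay far above the others.
Basement membrane genes had 12 of 16 below 0 with a median of -0.06, and 14 of 16 with a median of -0.35 without sevoflurane replicate 2. COL4A2, a chain of the type IV collagen network, ranged widely, at 180.2, 1089.5 and 125 CPM after sevoflurane and 811, 344 and 290.2 CPM in controls. Its log2 fold change was -0.038 ± 0.77 with all libraries and -1.67 ± 0.43 without sevoflurane replicate 2 (edgeR adjusted p = 0.29). In the flow and vasomotor list 5 of 9 were below 0, and MEF2A and MEF2C, transcription factors that respond to flow, overlapped with log2 fold changes of -0.79 ± 0.49 and -0.39 ± 0.26.

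Stress lists other than the glucocorticoid one held no called gene either. Of 12 hypoxia genes tested 8 were above 0, against 52.0% of all genes, with a median of 0.16 that was -0.04 without sevoflurane replicate 2. Of 9 interferon-response genes 8 were above 0, with a median of 0.34, but without that replicate 7 of the 9 were below 0 and the median was -0.15. That replicate was the highest library in 9 of the 9, against 24.7% of all genes tested. PARP14, which had the most UMIs of the interferon list, had 429, 746 and 255 CPM after sevoflurane and 383, 383 and 351 CPM in controls. Of 8 heat shock genes 7 were below 0, against 48.0% of all genes, with a median of -0.51 and -0.66 without that replicate. HSP90AA1, the inducible cytosolic HSP90, had 389.7, 426 and 155 CPM after sevoflurane and 411, 530.1 and 537 CPM in controls, and sevoflurane replicates 1 and 3 lay below every control.

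Adhesion and NF-kB genes set sevoflurane replicate 2 apart from the other 5 libraries. The summed level of 22 such genes was 12601 CPM in that library, against 716 to 1232 CPM in the other 5 libraries, while in all barcodes outside the endothelial set it was 193 CPM there and 159 to 202 CPM over the 6 libraries. SELE, the E-selectin that endothelial cells display only when activated, had 73.1, 1919 and 2.5 CPM after sevoflurane and 13.6, 14.3 and 20.9 CPM in controls; its UMIs were in 14 of the 24 barcodes of replicate 2. SELP, the P-selectin released from storage granules, had 29.2, 1942 and 7.49 CPM after sevoflurane and 13.6, 0 and 12.5 CPM in controls. VCAM1, which binds leukocyte integrins, had 19.5, 983 and 4.99 CPM after sevoflurane and 84.8, 0 and 12.5 CPM in controls. For all 3 genes sevoflurane replicates 1 and 3 lay far below replicate 2, and SELE and SELP in replicate 1 were above every control. In replicate 1, however, 1 of the 81 barcodes held 28 of the 44 UMIs of these 3 genes and BIRC3 together.
BIRC3, an inhibitor of apoptosis that NF-kB induces, had 92.5, 2937 and 12.5 CPM after sevoflurane and 74.7, 46.6 and 23.0 CPM in controls, with UMIs in 20 of the 24 barcodes of replicate 2. Its log2 fold change was 4.51 ± 1.55 with all libraries and -0.04 ± 0.69 without replicate 2, so the positive value rested on that library. NFKB1, a subunit of NF-kB itself, had 205, 1457 and 127 CPM after sevoflurane and 380.1, 147 and 132 CPM in controls, and its log2 fold change of 1.48 ± 0.86 became -0.41 ± 0.44 without replicate 2. The list as a whole had a median log2 fold change of 1.48 over its 7 tested members, 4 of them above 0, and of -0.41 without that library, when 2 of the 7 were above 0. The chemokines CCL2 and CXCL8, which attract monocytes and neutrophils, had 261 and 142 CPM in replicate 2, whereas CXCL8 had no UMI in any other library and CCL2 had UMIs in sevoflurane replicate 1 only among the other 5.
IL1R1, the interleukin-1 receptor, was the only 1 of the 7 tested members of the list whose groups did not overlap. Of all genes tested, 3.37% were higher and 6.19% lower after sevoflurane without overlap. It had 370.2, 1089.5 and 447 CPM after sevoflurane and 105, 261 and 200.4 CPM in controls, with a log2 fold change of 1.8 ± 0.49 and of 1.13 ± 0.31 without replicate 2 (edgeR adjusted p = 1.00 and 0.34).

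Further genes of sevoflurane replicate 2, chosen after their values were seen, extend this description. HIF1A, the oxygen-regulated transcription factor that NF-kB also induces, was detected in 23 of its 24 barcodes, at 1765 CPM there and 129 to 224 CPM in the other 5 libraries. The interleukin-4 receptor IL4R was at 1362 CPM, against 54.9 to 132 CPM, in 22 of the 24 barcodes. SOD2, the mitochondrial superoxide dismutase induced by cytokines, was at 841 CPM, against 6.26 to 39.0 CPM, in 19 of them. IL2RA, a chain of the interleukin-2 receptor, was at 2819 CPM, against 10.2 to 24.4 CPM, and CXCL10, an interferon-induced chemokine, at 497 CPM, against 0 to 4.87 CPM. Of 10 such genes (SELE, SELP, VCAM1, BIRC3, CCL2, CXCL8, SOD2, IL4R, MT2A and CXCL10), at least 3 were detected in 20 of the 24 barcodes of replicate 2 (83.3%), against 2 of 81 and 1 of 123 in sevoflurane replicates 1 and 3 and 3 of 99, 1 of 95 and 2 of 160 in the controls. Detection was thus spread over most of that library's endothelial barcodes, but the UMIs were unevenly held. For SELE, SELP, VCAM1 and BIRC3 together, 1 barcode held 181 of the 657 UMIs in replicate 2, and SELP was found in 7 of the 24 barcodes. In 1424 of all 5755 genes tested (24.7%) replicate 2 was the highest library and in 2309 (40.1%) the lowest, and it had the fewest barcodes.

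**Figure D5:**
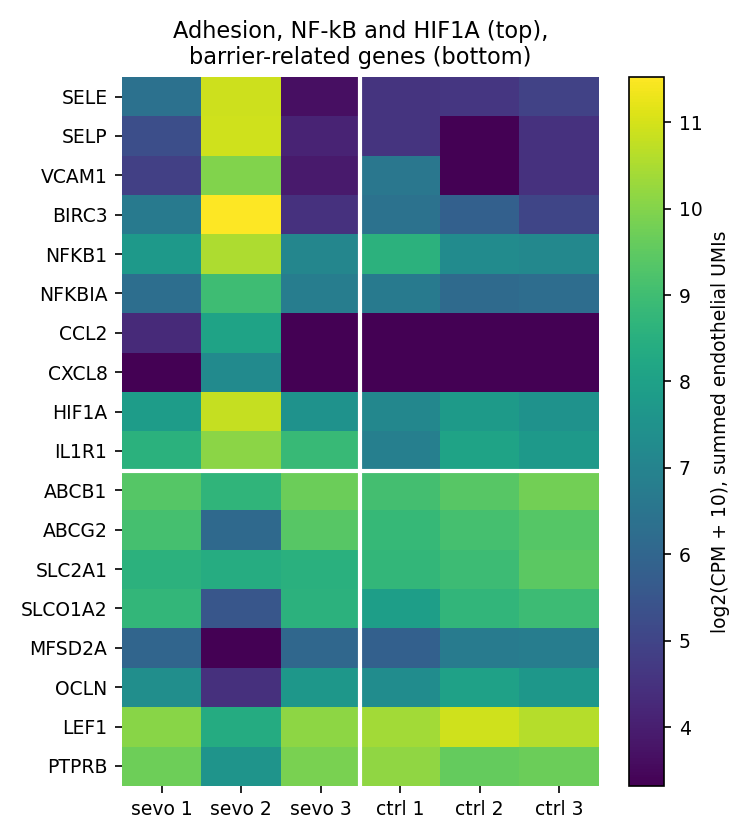
Levels of 10 adhesion, NF-kB and hypoxia genes (above the line) and 8 barrier and vessel genes (below it) in summed endothelial barcodes, as log2(CPM + 10), with the sevoflurane libraries left of the control libraries. Sevoflurane replicate 2 is the brightest column for each of the upper genes, SELE standing at 1919 CPM there, and darkest for the lower genes, ABCG2 standing at 59.2 CPM there; part of the genes were chosen for this after their values were seen, and ABCB1, ABCG2 and LEF1 are genes of the selection rule.

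Several barrier genes, chosen after their values were seen, were low in the same library. Of the 6 efflux pumps outside the selection rule 4 were lowest there, as were 11 of 20 solute carriers, 8 of 16 junction genes and 9 of 17 Wnt genes outside the rule, beside the 40.1% of all genes. SLCO1A2, an organic anion carrier of brain endothelium, was at 35.5 CPM in replicate 2, against 234 to 484 CPM in the other 5 libraries. PTPRB, the phosphatase that restrains TEK and VE-cadherin signalling, was at 178 CPM, against 763 to 1140.2 CPM. MFSD2A, the lipid carrier that suppresses transcytosis, and NKD1 had no UMI in replicate 2, which allows up to 35.5 CPM, and stood at 47.5 to 100.2 and 102 to 215 CPM in the others. Of the 23 tested genes of the endothelial identity list 8 were highest in that library and 5 lowest, beside 24.7% and 40.1% of all genes. FLT1, VWF, EMCN, ROBO4, ADGRL4, ETS1, ESAM and PALMD were highest, FLT1 at 3659 CPM and VWF at 189 CPM, and PECAM1, PTPRB, NOSTRIN, SLCO1A2 and MMRN2 were lowest.
Barcodes gated as astrocytes and as microglia in replicate 2 had no UMI of SELE, SELP or VCAM1. All barcodes outside the endothelial set of that library together held 166, 119 and 119 UMIs of these genes, beside 162, 164 and 83 in its endothelial barcodes. Their levels outside the set were 4.04, 2.90 and 2.90 CPM in replicate 2, against at most 0.445, 0.652 and 0.616 CPM in the other 5 libraries, so that the adhesion genes were higher there too, at levels far below those of the endothelial barcodes. The part of free RNA and of endothelial barcodes missed by the rule in this was not tested. BIRC3 was at 28.2 CPM in its astrocyte-gated barcodes, against 1.02 to 4.18 CPM in those of the other 5 libraries, and IL4R was at 1310 CPM in its microglia-gated barcodes, against 145 to 268 CPM. Haemoglobin RNA moved with this library too: HBB, the beta chain of haemoglobin in red cells, was at 4986 CPM in its endothelial barcodes, against 251 to 852 CPM in the others, with 318 of its 421 UMIs in 1 barcode, and 38.3 CPM in all its other barcodes. SLC4A1, the anion exchanger of the red cell membrane, had no UMI, and the part of such RNA in the result was not tested.

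Without sevoflurane replicate 2, 516 of 6257 genes tested (8.25%) had an unadjusted p under 0.05 and none passed edgeR's adjusted test. The 5 smallest p-values on the higher side were those of ZBTB16, LIFR, VAV3, ADGRG6 and FKBP5, with adjusted p from 0.16 to 0.22. LIFR, the receptor of leukaemia inhibitory factor, had 677, 130.3 and 919 CPM after sevoflurane and 295, 236 and 342 CPM in controls. VAV3, a guanine nucleotide exchange factor, had 341, 71.1 and 567 CPM after sevoflurane and 136, 172 and 157 CPM in controls. ADGRG6, an adhesion receptor, had 682, 249 and 1171 CPM after sevoflurane and 387, 358 and 342 CPM in controls. In ZBTB16, LIFR, VAV3 and ADGRG6 sevoflurane replicates 1 and 3 lay above every control and replicate 2 lay below every control. On the lower side the 5 were DNAH7, MEDAG, TM4SF18, SERPINH1 and CDH5, with adjusted p from 0.23 to 0.24; MEDAG, TM4SF18 and SERPINH1 were highest in replicate 2, SERPINH1, a collagen chaperone, at 178 CPM there, 24.4 and 9.99 CPM in sevoflurane replicates 1 and 3 and 50.9, 89.5 and 87.7 CPM in the controls.

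Vessel-zone genes showed that arterial, capillary and venous markers were all present. EFNB2, the arterial ephrin, had a UMI in 127 of the 582 barcodes and NR2F2, the transcription factor of venous fate, in 160; 40 barcodes held both. Among the EFNB2 barcodes 45.7% also held VEGFC, against 31.2% of the others, but 7.09% held the arterial gene SEMA3G, against 6.81%. Among the NR2F2 barcodes 48.8% held the venous gene IL1R1, against 30.3% of the others, and 76.9% held the capillary gene TFRC, against 58.3%. Among barcodes with the capillary gene MFSD2A 44.2% held NR2F2, against 24.2% of the others, so joint detection was also higher for some pairs across zones. For other pairs across zones it was lower. TFRC was in 55.1% of the EFNB2 barcodes, against 65.7% of the others, and IL1R1 in 33.9%, against 35.8%. SEMA3G was in 5.63% of the NR2F2 barcodes, against 7.35% of the others. Barcodes with either marker were deeper, with medians of 3142 UMIs with EFNB2 and 2281 without and of 3339 with NR2F2 and 2181 without, and joint detection was not corrected for depth. ALPL, alkaline phosphatase of arterial and capillary endothelium, had 336, 178 and 229.7 CPM after sevoflurane and 465, 505 and 474 CPM in controls, with no overlap and a log2 fold change of -0.89 ± 0.27. BMX, a kinase of arterial endothelium named after its values were seen, had 132, 166 and 162 CPM after sevoflurane and 20.4, 25.1 and 96.0 CPM in controls, with a log2 fold change of 1.65 ± 0.52 in the other direction. TSHZ2, which had the most UMIs of the venous list, had 1461, 3245 and 1768 CPM after sevoflurane and 872, 1232 and 1240.2 CPM in controls, again without overlap. The summed venous list was 2635, 11878 and 2849 CPM after sevoflurane, against 1765, 2353 and 2171 CPM in controls. The height of this sum in replicate 2 came with SELE, SELP, VCAM1, IL4R and IL1R1, which the list shares with the account above, and with TSHZ2. None of these genes passed the adjusted test.

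A few members held PLVAP and lacked several barrier genes. PLVAP, the diaphragm protein of fenestrated capillaries such as those of the choroid plexus, was found in 6 barcodes, all in sevoflurane replicate 1, with 14 UMIs. These 6 barcodes, selected by that gene, held 13561 UMIs and none of ABCG2, LEF1, SLCO1A2, OCLN, TFRC or CGNL1, whereas LEF1 was found in 58 and TFRC in 42 of the other 75 endothelial barcodes of the same library. The efflux pump ABCB1, a gene of the selection rule, was kept, in 5 of the 6 at 516 CPM, against 652 CPM in the other 75, and SLC2A1 had 1 UMI in the 6 barcodes, at 73.7 CPM, against 396 CPM in the other 75. EMCN, a sialomucin of veins and fenestrated capillaries, was at 1991 CPM in them and 516 CPM in the other 75, and KDR at 664 and 78.2 CPM. TTR, the transthyretin of choroid plexus epithelium, stood at 117 CPM in endothelial barcodes of that library and at 50.8 CPM in its other barcodes, against 0 to 4.99 CPM in endothelial barcodes of the other 5 libraries.

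Markers of other cell types were present, some of them above their level in all other barcodes, and their sums overlapped between the groups. The fibroblast, astrocyte, oligodendrocyte, precursor and neuron lists each include 1 of the genes that kept barcodes out, so their sums are held down by the rule. Of 11 mural genes in the files all had a UMI, and their sum was 367 to 424 CPM after sevoflurane and 365 to 505 CPM in controls, above the 71.1 to 119 CPM of all other barcodes; the pericyte genes HIGD1B, ABCC9 and NOTCH3 had the most UMIs. The 11 fibroblast genes summed to 94.7 to 273 CPM after sevoflurane and 197 to 469 CPM in controls, with FBLN2 at 0. All other barcodes held 117 to 171 CPM of them, less than the endothelial barcodes of the same library except in sevoflurane replicate 2. The 14 microglia genes summed to 130.3 to 253 CPM after sevoflurane and 201 to 315 CPM in controls. This was above the sum in all other barcodes of every library, which held 105 to 168 CPM. INPP5D had the most UMIs, and CSF1R, which defines microglia, had no UMI after sevoflurane and at most 7.16 CPM in a control.
The 11 astrocyte genes summed to 779 to 1084 CPM after sevoflurane and 849 to 1869 CPM in controls, GPC5 having the most UMIs, with GJB6 and SOX9 at 0 and a sum of 1718 to 3318 CPM in other barcodes. The 13 neuron genes summed to 746 to 1223 CPM after sevoflurane and 792 to 1025 CPM in controls, the 10 oligodendrocyte genes to 379 to 555 CPM after sevoflurane and 419.7 to 502 CPM in controls, and the 10 precursor genes to 94.7 to 232 CPM after sevoflurane and 122 to 210.4 CPM in controls, all below their sums in other barcodes of every library. Of 11 lymphocyte genes 5 had a UMI, and CD3E, CD3D and CD2 had none.

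Whether the endothelial response to sevoflurane differed from that of other cells was tested with limma on each library's difference in log2 CPM between classes. No gene differed after adjustment from all other barcodes (0 of 5750, 0.0%), from astrocyte-gated barcodes (0 of 5546, 0.0%) or from microglia-gated barcodes (0 of 5173, 0.0%); at an unadjusted p under 0.05 the counts were 199 (3.46%), 194 (3.5%) and 225 (4.35%). FKBP5 was at 90.7, 91.5 and 74.1 CPM after sevoflurane and 59.7, 39.5 and 50.7 CPM in controls in all other barcodes, and at 1732, 1705 and 2107 CPM after sevoflurane and 365, 403 and 364 CPM in controls in microglia-gated barcodes. The log2 fold change of FKBP5 in endothelial barcodes exceeded that in all other barcodes by 1.16 ± 0.45 (SE; limma adjusted p = 0.98) and that in astrocyte-gated barcodes by 0.81 ± 0.38 (adjusted p = 0.99), which was 0.49 without sevoflurane replicate 2. Set against microglia-gated barcodes, where edgeR gave 2.32 ± 0.18 (adjusted p = 0.000899), the difference was -0.39 ± 0.39 (adjusted p = 0.97) and was -0.79 without sevoflurane replicate 2 and -0.0022 without sevoflurane replicate 1. GHR had the smallest unadjusted p of the named genes against all other barcodes, a difference of 1.96 ± 0.31 that did not pass (limma adjusted p = 0.98); its level in those barcodes was 115, 94.0 and 65.5 CPM after sevoflurane and 119.8, 113 and 119 CPM in controls.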

How the data were processed

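Single-cell 3' libraries of marmoset hippocampi were analysed from the raw UMI counts that the authors deposited per barcode and gene, made with Cell Ranger 6.1.1 per the file headers; CASAVA 1.8 and Seurat are named in the submitters' processing notes, and the genome build is not given in the sources used here. Each matrix was used as deposited, with barcodes of at least 500 UMIs. Of 29320 genes, 15188 had a symbol in the files and 1379 were named through a gene name table. Members, lists and tests were chosen with earlier results of these data known.

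UMIs were summed per library over the selected barcodes. Genes kept by filterByExpr were tested with TMM scaling and quasi-likelihood F tests in edgeR 4.0.16, adjusted by Benjamini-Hochberg at 0.05; DESeq2 1.42.0 was an alternative. Differences between cell classes were tested with limma 3.58.1 (prior count 2), the classes being gated on their own marker genes. Shares were compared by exact permutation over 20 arrangements. The fits were tested on simulated data. Scrublet in scanpy 1.11.5 marked doublets (median threshold 0.19), which stayed in except in an alternative.

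Named genes were FKBP5, the rule genes, the 5 smallest p-values in each direction with a symbol and, averaged over libraries, log2 CPM of 5 or more, and in each list the 2 smallest p-values and 3 highest CPM, some of which are given only by count; for identity genes the highest ratios were taken. Any further gene was picked with its values in view. No pairing was used, because the labels state none. Deviations of same-numbered libraries from their group means correlated at r = -0.029, 0.10 and 0.12, against -0.15 to 0.11 for differently numbered ones. With 3 libraries per group these values cannot decide whether libraries were paired.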

Additional observations from a re-analysis of the deposited data

How the results depend on the processing

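The count of genes changed in endothelial barcodes was 0 of 5755 in the edgeR test and stayed at 0 under 13 alternatives, each library left out in turn included. It was 75 of 17782 without a filter on low counts. FKBP5, VCL, SLC6A6, GHR, PLA2G4A and DNAH7 passed there, with edgeR adjusted p from 4.0e-05 to 0.017. KIAA1549L, LRRC1, C1orf54 and DNM3 did not pass there. With DESeq2 the count was 1 (FKBP5). The cause of the calls in these 2 settings was not tested. At an unadjusted p under 0.05 the counts ran from 127, without barcodes holding UMIs of other lists, to 810 without the filter, against 218; without sevoflurane replicate 2 the count was 516 and without sevoflurane replicate 3 it was 339. The log2 fold changes of the 10 genes with the smallest p kept their sign under every alternative in which they were tested. No pairing is stated for same-numbered libraries of the 2 groups. With a replicate block 0 genes were called, with 187 at an unadjusted p under 0.05, and FKBP5 was at 1.99. The difference in endothelial share lay between -0.86 and -0.16 percentage points over its alternatives and that in barcodes with FKBP5 between 16.4 and 40.5 percentage points, but exact tests of 3 against 3 libraries cannot pass 0.05. All 3 counts of genes whose response differed from another class were 0 under every alternative; the comparison with mural cells was not run, as 1 to 9 barcodes per library passed that gate. Reading ABCG2 through the gene name table was added after the data were seen and left the count at 0. Depth limits all of these values, above all in sevoflurane replicate 2 with 24 barcodes.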
